A study of Mus musculus with 9 samples.

Results

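The day 3 state of mouse tracheal basal cells in culture was set against the days before and after it. Day 3 was compared with the average of the day 1 and day 5 means on log2(normalized count + 1), and a gene was called highest or lowest on day 3 only when its day 3 mean lay beyond each of the other day means on the same side. A normalized count is a read count divided by a scaling factor of its library. The test covered 17338 of the 56748 genes in the table, those that reached 10 normalized counts in 3 or more of the 9 libraries. Of these, 2073 were highest on day 3 and 1791 were lowest.

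All libraries came from wild-type (WT) primary basal stem cells of the mouse trachea in air-liquid interface culture, where cells sit on a membrane with medium below and air above. There were 3 libraries at each of day 1, day 3 and day 5, and the submitters name these stages proliferation, stratification and luminal specification. No other genotype or treatment was part of the comparison, and a culture holds only the cells that isolation and growth retained. The labels name neither the age of the mice nor separate cultures or animals for the replicates, so each p-value reflects only how far these samples scatter, and that scatter may be technical. A level with ± is the mean and SD of a day's 3 libraries (n = 3), and otherwise single libraries are listed in the order of their replicate numbers.

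Basal cells are the stem cells of the tracheal lining. They carry keratins 5 and 14 and the transcription factor p63, and give rise to secretory and multiciliated cells through intermediate cells that lie above the basal layer and carry keratins 4, 8 and 13. Notch signalling between neighbouring cells directs them toward the secretory fate, and retinoic acid, made from vitamin A, keeps the airway lining mucosal rather than squamous.

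Libraries held 16.4 to 35.1 M reads, and day 1 was sequenced deepest (30.8 ± 4.29 M), ahead of day 3 (21.9 ± 2.55 M) and day 5 (17.6 ± 1.51 M), so counting precision is lower on the later days. The first principal component, with 61.0% of the variance, placed day 3 (-6.67 to 9.07) between day 1 (-145.6 to -131.0) and day 5 (127.7 to 139.8). A second principal component with 31.3% of the variance held the 3 day 3 libraries at -123.5, -117.6 and -89.8 and the other 6 between 32.0 and 90.7. On this second axis day 3 replicate 3 lay nearest to the other days, and day 5 replicate 1 farthest from day 3. Basal keratins were still expressed on day 3: Krt5 stood at 82486 ± 1709 and Krt14 at 9822 ± 663 normalized counts. On day 1 they stood at 108199 ± 5696 and 38820 ± 5429. The list of 24 basal cell genes had a median contrast of -0.56, with 14 members lower than the average and 6 higher. The summed level of 4 Y-linked genes was 3137 ± 113 on day 1, 324 ± 24.2 on day 3 and 461 ± 98.3 on day 5, while Xist, expressed from the inactive X chromosome of females, stood at 1825 ± 246, 5998 ± 507 and 7373 ± 1292. The day of culture and the mice behind each day therefore cannot be told apart in these libraries.

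Against the average of the other days, 5885 genes were higher on day 3 (33.9% of those tested) and 6379 lower (36.8%), in limma's test with Benjamini-Hochberg adjustment over all tested genes. Being highest on day 3 held for 12% of tested genes and being lowest for 10.3%, and both calls rest on the same day 3 libraries in each of their differences. Each count of list members below is to be set beside these shares. Of the highest genes, 1007 were at least 2-fold above each other day, 156 at least 4-fold and 33 at least 8-fold. Among the lowest, 897 were at least 2-fold below each other day, 345 at least 4-fold and 83 at least 8-fold. Days 1 and 5 lay within 2-fold of each other in 80.0% of the highest and 74.6% of the lowest genes, beside 49.2% of all tested genes, and the calling rule itself favours such genes. Day 5 still differed from day 1 (adjusted p under 0.05) in 50.9% of the highest and 53.6% of the lowest genes, beside 74.5% of all tested genes. With the trend in transcript length and GC content taken out of each library, 2480 genes were highest and 908 lowest, and 6839 were higher and 4812 lower than the average. That step moved the median contrast of all genes from -0.04 to 0.13 on the log2 scale.

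**Figure D1:**
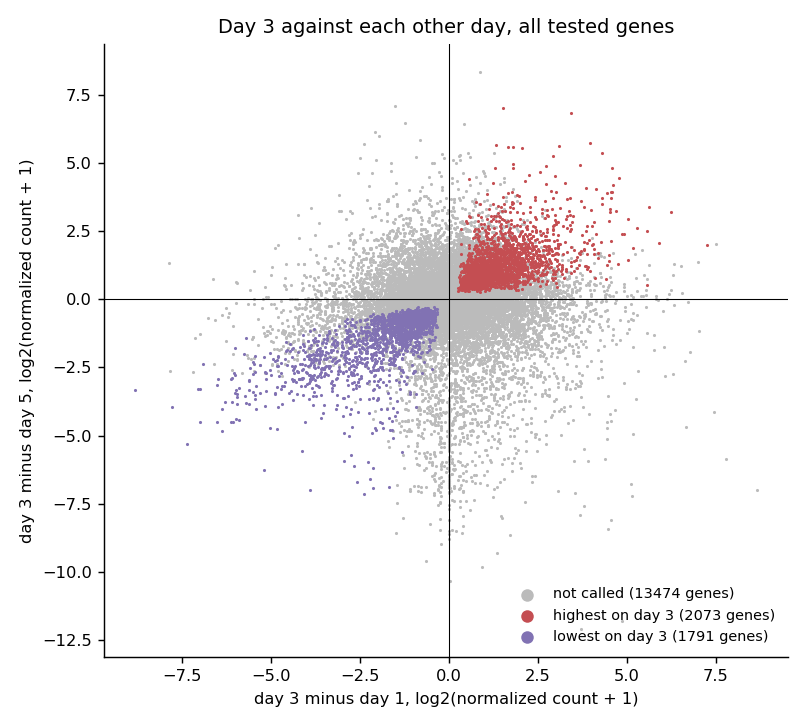
Each point is a tested gene, placed by its day 3 minus day 1 difference (x axis) and its day 3 minus day 5 difference (y axis), both on log2(normalized count + 1). The 2073 genes highest on day 3 fill the upper right and the 1791 lowest the lower left, and the lowest reach farther along the day 1 axis.

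Keratins of suprabasal and luminal cells peaked on day 3. Krt13, the hillock and suprabasal keratin, read 64191, 65542 and 53132 normalized counts in the day 3 libraries, 22031, 12540 and 22470 on day 1, and 4730, 9876 and 6174 on day 5. No library of another day reached the lowest day 3 value, and the mean was 3.21-fold that of day 1 and 8.80-fold that of day 5 (adjusted p = 0.00245). Its partner Krt4 read 33774, 34702 and 32064 on day 3 against 8339 to 17457 on day 1 and 7702 to 11338 on day 5 (adjusted p = 0.00644). Krt8 and Krt18, the pair of simple epithelia, peaked by less: Krt8 stood at 12601 ± 771, 22813 ± 1403 and 12066 ± 1809 on days 1, 3 and 5, and Krt18 at 9236 ± 362, 19587 ± 1466 and 8450 ± 1394. Krt7, a simple epithelial keratin of luminal cells, rose from 51773 ± 4313 to 116872 ± 7705 and fell to 16155 ± 2678, and Krt19 had the means 55928, 128183 and 54355. Krt4, Krt8 and Krt19 were not highest once the length and GC trend was removed (adjusted p = 0.121, 1 and 0.164), while Krt13, Krt18 and Krt7 were. With quantile normalization, which gives each library the same distribution, Krt13 (adjusted p = 0.0676), Krt4 (0.343), Krt8 (0.513) and Krt19 (0.0796) were no longer called.

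Of the 27 tested suprabasal and hillock genes, 10 were highest on day 3 and 0 lowest, and 6 and 0 with the trend removed. The median contrast was 0.91 beside -0.04 over all tested genes, but the list as a whole did not peak on day 3: its median was -0.41 for day 3 minus day 1 and 1.84 for day 3 minus day 5. Its median deviation from each gene's mean was 1.41, 1.42 and 1.10 in the day 1 libraries, 0.83, 0.61 and 0.69 in the day 3 libraries, and below 0 on day 5. The cysteine protease inhibitor Cstb went from 3235 ± 219 to 9914 ± 1189 and back to 3546 ± 966, and the matrix protein Ecm1 from 11570 ± 32 to 32347 ± 4895 and 5353 ± 912. Ly6d, a surface protein of stratifying keratinocytes, stood at 240 ± 148, 905 ± 153 and 263 ± 56.8, and was not highest with the trend removed (adjusted p = 0.0909) or without any single library of day 3 or day 5 (adjusted p = 0.0531 to 0.151). Of 21 squamous cornification genes 1 was highest, the skin protease Asprv1, and 2 were lowest, filaggrin (Flg) and the protease inhibitor Spink5, and 0 in either direction with the trend removed. Spink5 read 51.2, 52.2 and 39.5 on day 3 against 865, 242 and 862 on day 1 and 244, 178 and 161 on day 5, and its call was lost without day 5 replicate 1 (adjusted p = 0.0554). Asprv1 and Flg, with day 3 means of 78.5 and 0.329, lost theirs without either of day 3 replicates 1 and 2 (adjusted p = 0.0525 to 0.141). Asprv1 also lost it without day 1 replicate 2 or 3 or day 3 replicate 3, and Flg without day 1 replicate 1 or 3 or day 5 replicate 2 (adjusted p = 0.0577 to 0.165).

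Several tight junction genes were highest on day 3, as was Elf3, an epithelial transcription factor. Elf3 read 13378, 12999 and 12733 on day 3, 3287, 2300 and 3490 on day 1, and 3502, 4263 and 4570 on day 5 (adjusted p = 0.000214). The day 3 values lay close together and well clear of the rest. Cldn7, a claudin of the lateral membrane, read 14976, 13780 and 12857 on day 3 against 3770 to 4218 on day 1 and 3433 to 4782 on day 5 (adjusted p = 5.29e-05). Cldn3 followed the same course at 2059 ± 272, 12064 ± 1115 and 5087 ± 989, and Cldn6 stood at 670 ± 27.5, 1666 ± 322 and 58.4 ± 1.88. Of 29 tested genes for luminal keratins and tight junctions, 13 were highest and 2 lowest, and with the trend removed 10 and 0. Their median contrast was near 0, with 14 members higher than the average and 9 lower. The 2 lowest were Grhl1 and Grhl2, transcription factors that drive junction genes: Grhl2 stood at 2164 ± 89.1, 1383 ± 123 and 2303 ± 407, and neither was lowest with the trend removed (adjusted p = 0.307 and 0.177). Grhl1, at 665 ± 148, 334 ± 7.96 and 560 ± 79.9, also lost its call without day 3 replicate 1 or 2 or day 5 replicate 1 or 2 (adjusted p = 0.0598 to 0.0736).

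**Figure D2:**
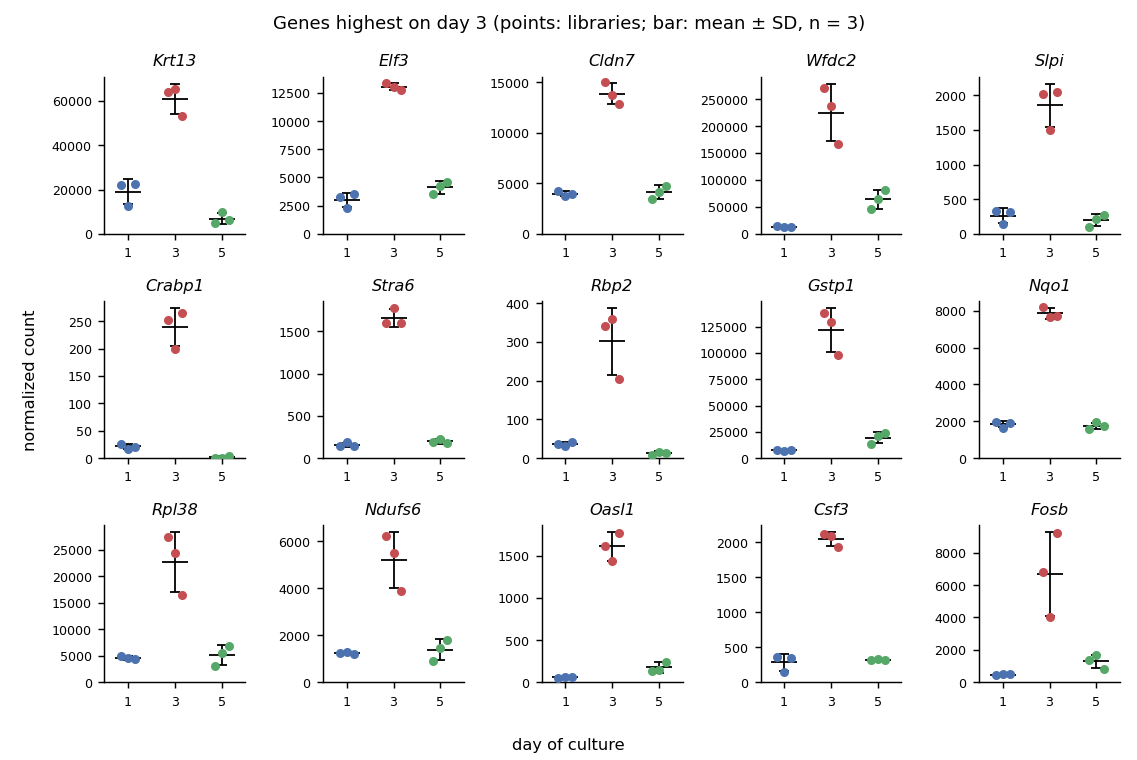
Normalized counts (y axis, linear, from 0) of 15 genes highest on day 3, by day of culture (x axis); points are libraries and the bar is the mean ± SD of 3. In each panel the 3 day 3 libraries lie above the other 6, and Rpl38, Ndufs6 and Gstp1 share an order in which day 3 replicate 3 is the lowest of its day.

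Proteins of airway defence that are shed into the lumen had a day 3 peak in part. Wfdc2, a secreted protein of airway lining cells with a protease inhibitor fold, read 271149, 237026 and 166258 on day 3 and 12226 to 13686 on day 1, and kept 46074, 65002 and 80765 on day 5. It was the day 3 level that stood highest, 17.2-fold above day 1 and 3.52-fold above day 5 (adjusted p = 0.00093). Slpi, an antiprotease of mucosal fluid, returned fully: it read 2022, 1493 and 2045 on day 3 against 143 to 334 on day 1 and 103 to 279 on day 5. The membrane mucin Muc20 stood at 101 ± 41.6, 1446 ± 107 and 638 ± 23.4, a peak not called without day 3 replicate 1 or 2 or day 5 replicate 2 (adjusted p = 0.052 to 0.0645). Of 39 tested secretory cell genes, 7 were highest and 1 lowest (17.9% and 2.56%, beside 12% and 10.3% of all tested genes). The others mostly climbed through day 5, and the list had median differences of day 3 minus day 1 of 3.68 and of day 3 minus day 5 of -2.28. The lowest was the gel-forming mucin Muc5ac, with 1.82 to 4.75 normalized counts on day 1, 0 in each day 3 library and 99.4 to 155 on day 5, a call that needs the small pseudocount (adjusted p = 0.171 with a pseudocount of 8). The club cell secretoglobin Scgb1a1 and the ciliogenesis factor Foxj1 were neither highest nor lowest: Scgb1a1 stood at 8.69 ± 7.18, 96.8 ± 21.2 and 18744 ± 5304, and Foxj1 at 2.01 ± 1.29, 41.9 ± 9.31 and 2594 ± 262.

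Some carriers and receptors of vitamin A were highest on day 3. Stra6, the membrane receptor that takes up retinol from its serum carrier, read 1594, 1777 and 1603 on day 3, 147, 187 and 139 on day 1, and 193, 223 and 175 on day 5, a mean 10.5-fold above day 1 and 8.41-fold above day 5 (adjusted p = 5.57e-06). Rbp2, a cytosolic retinol carrier, read 341, 360 and 203 on day 3, 31.6 to 41.8 on day 1 and 6.94 to 16.8 on day 5. Crabp1, which binds retinoic acid in the cytosol, read 252, 199 and 264 on day 3, 17.4 to 26.4 on day 1 and at most 3.69 on day 5. For Stra6, Rbp2 and Crabp1 the peak belonged to day 3 alone, with both neighbours low. In all, 6 of 19 tested genes of retinoid handling were highest, and 1, the receptor gene Rarb, was lowest at 203 ± 13.7, 59.2 ± 11.9 and 215 ± 127, but not without day 3 replicate 1 or 2 (adjusted p = 0.0503 and 0.0537). The median contrast of the list was 0.10, so the peak belonged to these members and not to most of the list.

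Part of the glutathione and redox enzymes also peaked. Gstp1, a glutathione transferase, read 138162, 129000 and 98338 on day 3, 7469, 6645 and 7960 on day 1, and 13813, 20674 and 23577 on day 5. Its mean was 16.6-fold that of day 1 and 6.29-fold that of day 5 (adjusted p = 9.3e-05). The neighbouring copy Gstp2 read 42956, 38959 and 29863 on day 3 against 1647 to 2880 on day 1 and 3893 to 6582 on day 5, and the third copy, Gstp3, stood at 12.9 ± 3.24, 148 ± 26.2 and 26.7 ± 16.3; reads of these near-identical genes can be assigned to the wrong copy. Summed over the family, 0.529% to 0.673% of all normalized counts on day 3 came from Gstp genes, against 0.0378% to 0.0497% on day 1 and 0.0928% to 0.143% on day 5. Nqo1, a quinone reductase, read 8202, 7636 and 7732 on day 3 against 1641 to 1971 on day 1 and 1561 to 1935 on day 5 (adjusted p = 7.94e-06). Its days 1 and 5 overlapped each other and day 3 stood clear. Of 32 tested enzymes of glutathione and the NRF2 response, the antioxidant programme driven by the factor NRF2, 12 were highest and 1 lowest, with a median contrast of 0.96. The lowest was Hmox1, which degrades haem, at 887 ± 129, 590 ± 133 and 916 ± 109 (adjusted p = 0.0487), a call lost without any single library except day 1 replicate 2 and day 3 replicate 3 (adjusted p = 0.0593 to 0.209). Among 32 enzymes of xenobiotic metabolism 5 were highest (15.6% beside 12% of all tested genes) and 0 lowest. Of the highest, Aldh3a1 stood at 6252 ± 1916, 37812 ± 5609 and 17944 ± 3224 and the aldo-keto reductase Akr1b8 at 866 ± 55.1, 1842 ± 74.7 and 348 ± 46.2. Aldh3a1 was not called with quantile normalization (adjusted p = 1) or without day 3 replicate 1 or 2 (0.061 and 0.0588).

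The promoters of Gstp1 and Gstp2 are shown with a motif of the AP-1 group of factors, which is described further on. AP-1 dimers bind TGACTCA, which was searched on both strands from 250 bases before to 50 after the start of each gene in the RefSeq promoter table (GRCm38.p6), after the values were seen. Of the tested genes, 11364 had an entry by symbol. The genes printed were all highest on day 3 and are only part of the named genes with a match. Cd68, Ddit3, Ecm1, Mrpl33 and others had a match too. The windows are printed 5′ to 3′ on the strand of the gene with the match in capitals, which in the Gstp pair is the reverse complement of the searched letters.
Gstp1, chr19:4037960-4038006, minus strand: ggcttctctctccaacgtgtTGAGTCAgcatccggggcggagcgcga
Gstp2, chr19:4042284-4042330, minus strand: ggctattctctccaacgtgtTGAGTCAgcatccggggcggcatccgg
Krt13, chr11:100120734-100120780, minus strand: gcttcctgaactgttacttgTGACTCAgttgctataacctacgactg
Muc13, chr16:33793956-33794002, plus strand: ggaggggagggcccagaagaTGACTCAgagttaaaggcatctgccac
The match begins at position -74 from the start in Gstp1 and -89 in Gstp2. It was present in 4.93% of all promoters searched, in 5.53% of those of the highest genes and in 4.12% of those of the lowest. In the glutathione and NRF2 list it was present in 5 of 27 promoters (18.5%). A match describes the letters only and does not tell which factor uses them. Binding by AP-1, NRF2 or any other factor was not tested.

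Genes for the cytosolic ribosome rose and returned almost as a block. Of 79 tested ribosomal protein genes, 73 were highest on day 3 (92.4% beside 12% of all tested genes), 0 lowest, and all 79 were above the average of the other days, with a median contrast of 1.49. Rpl38, of the large subunit, read 27449, 24333 and 16490 on day 3, 5057, 4516 and 4340 on day 1, and 3162, 5457 and 6786 on day 5 (adjusted p = 0.000642). The day 3 libraries stood apart, with replicate 3 the lowest of them and day 5 replicate 3 the nearest from outside. Of the small subunit, Rps15 stood at 15628 ± 448, 69483 ± 16787 and 20067 ± 6186 and Rpsa at 32022 ± 1009, 110497 ± 24902 and 28760 ± 8287, and the stalk protein Rplp2 at 13072 ± 808, 53108 ± 13184 and 16382 ± 5925. Together these 79 genes gave 10.8% to 13.5% of normalized counts on day 3, 5.23% to 5.61% on day 1 and 4.62% to 7.19% on day 5. The list moved within a day along the same axis: its median deviation from each gene's mean was 1.18, 1.07 and 0.69 in the day 3 libraries and -0.92, -0.29 and -0.10 in the day 5 libraries. With the trend removed 70 were highest, with a median contrast of 1.19, and with quantile normalization the median was 0.83. Ribosomal proteins have many processed pseudogenes, so the split of reads between copies is uncertain for single members such as Rpl24, with 257 ± 129 on day 3, which lost its call without either of replicates 1 and 2 of day 3 or day 5 (adjusted p = 0.0504 to 0.0828).

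Ribosomal protein messages are known to begin in a run of pyrimidines (C or T) through which their translation is controlled, so the start sites of members with a large contrast are shown. Each window runs from 20 bases before the RefSeq start to 10 bases from it on, with the longest pyrimidine run near the start in capitals (GRCm38.p6). Rpl24 and Rpsa were chosen by contrast in the same way but are not printed. Within their windows the run held 2 bases in Rpl24 and 4 in Rpsa, where it reached the end of the window and may go on. A short run at the annotated start does not show that the message lacks one.
Rpl38, chr11:114668560-114668589, plus strand: ccggaagcggaagcctcgTTCTTTCCCCgt
Rplp2, chr7:141447631-141447660, plus strand: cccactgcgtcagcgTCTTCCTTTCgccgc
Rps15, chr10:80292411-80292440, plus strand: gccctcccggcagagCTCgcgataactgcg
A run of at least 8 within 6 bases of the annotated start, as in Rpl38 and Rplp2 and not in Rps15, was found in 26 of 58 ribosomal protein genes with an entry (44.8%). The share was 13.9% of all tested genes with an entry, 14% of the highest and 12.5% of the lowest genes. Mitochondrial ribosomal proteins, which also peaked, had it in 11.9% and nuclear respiratory subunits in 9.8%. The start used in these cells was not measured, and a link between such a run and the peak was not tested.

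Nuclear genes for mitochondrial proteins rose with them while genes of the mitochondrial genome did not. Of 76 tested nuclear subunits of the respiratory chain, 64 were highest and 0 lowest, with a median contrast of 1.32. Ndufs6, of complex I, read 6229, 5499 and 3886 on day 3, 1248, 1293 and 1192 on day 1, and 896, 1455 and 1778 on day 5. Ndufb7, of the same complex, stood at 1027 ± 6.03, 5274 ± 1233 and 1546 ± 494, and Atp5k, of ATP synthase, at 1326 ± 91.9, 5803 ± 1493 and 1605 ± 545. Of 76 tested mitochondrial ribosomal proteins, 50 were highest and 0 lowest, with Mrps16 at 535, 529 and 524 on day 1, 2693, 2367 and 1708 on day 3 and 469, 676 and 768 on day 5. With the trend removed, 60 respiratory and 41 mitochondrial ribosomal genes were highest. Of the 13 genes of the mitochondrial genome, 0 were highest and 5 lowest (3 with the trend removed), with a median contrast of -0.74. mt-Nd2, of complex I, read 10754, 11887 and 16820 on day 3 against 27394 to 30560 on day 1 and 36399 to 45774 on day 5, and mt-Atp8 read 1921, 1193 and 1486 against 12540 to 14807 and 4126 to 8730. mt-Nd1 was lowest at 31179 ± 7879 on day 3, but not with the trend removed (adjusted p = 0.0621) or without day 3 replicate 2 (0.0533). mt-Nd4l, at 7080 ± 474, 895 ± 575 and 4815 ± 3925, lost its call without day 3 replicate 1 or 2 (0.0735 and 0.0648).

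Proteasome subunits, translation factors and host genes of small nucleolar RNAs had more highest than lowest calls. Of 36 proteasome subunits, 19 were highest and 1 lowest, with a median contrast of 0.72. The immunoproteasome subunit Psmb10 stood at 205 ± 5.88, 1513 ± 257 and 606 ± 154 and the core subunit Psma7 at 3761 ± 179, 9411 ± 1093 and 3955 ± 949. The lowest was Psmd1, a large subunit of the cap, at 5137 ± 275, 1287 ± 302 and 1949 ± 354, which was not lowest with the trend removed (adjusted p = 0.823) or without any single library except day 3 replicate 3 and day 5 replicate 3 (0.066 to 0.184). Among 36 translation factors 13 were highest, Eef1b2 with 11835 ± 774, 31651 ± 4351 and 12101 ± 3025, and 1 was lowest, the helicase Eif4a2 with 5984 ± 373, 3761 ± 402 and 7162 ± 680. Of 13 host genes of small nucleolar RNAs and nuclear long noncoding RNAs, 5 were highest and 0 lowest, among them Snhg8 with 616 ± 36.4, 1833 ± 361 and 665 ± 176.

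**Figure D3:**
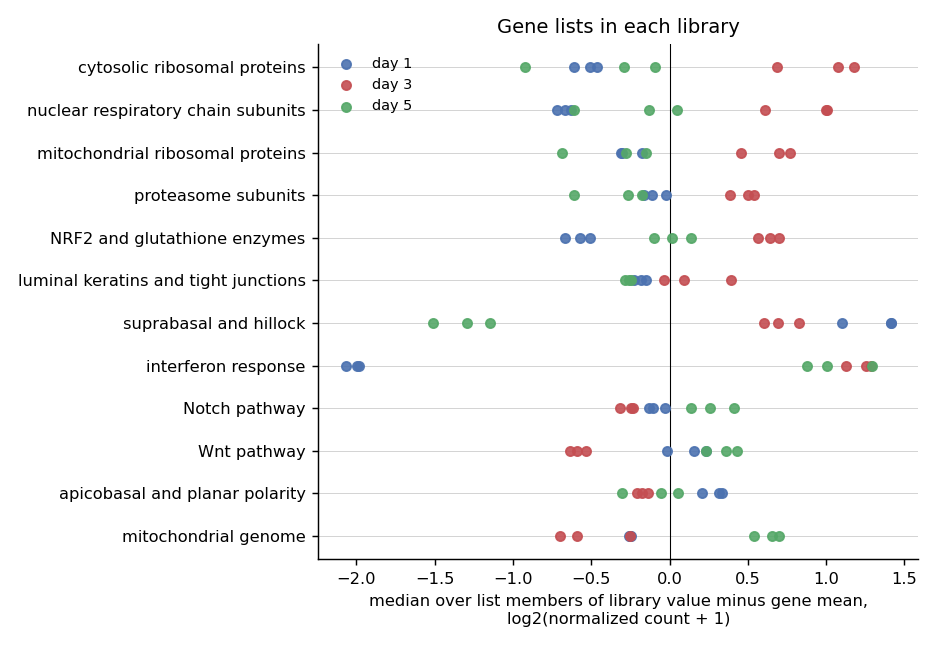
For each gene list, a point per library gives the median over its tested members of the library's value minus the gene's mean over all libraries, on log2(normalized count + 1) (x axis). Ribosomal, respiratory and proteasome lists have the 3 day 3 libraries at the right with day 3 replicate 3 nearest to the others, the mitochondrial genome has day 5 at the right, and interferon response genes stay high on day 5.

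A small set of stress and cytokine genes peaked. Of 38 immediate early genes, 3 were highest (7.89%, below the 12% of all tested genes) and 0 lowest. All 3 encode factors that dimerize in the AP-1 group. Fosb read 6792, 4022 and 9184 on day 3, 424, 491 and 487 on day 1, and 1373, 1656 and 844 on day 5 (adjusted p = 0.000805). Jund read 10426, 8732 and 7554 against 1495 to 1631 on day 1 and 1829 to 2913 on day 5, and Atf3 read 2429, 1082 and 4173 against 382 to 434 and 529 to 905. The day 3 libraries of Atf3 were widely spread, and its call was lost without day 3 replicate 1 (adjusted p = 0.0665) or day 5 replicate 3 (0.0512). Exons of Jund share 52.6% of their bases with an opposite-strand gene, and without known strand in the counting such reads cannot be told apart. The median contrast of the immediate early list was near 0. Of 18 heat shock genes 4 were lowest and 1 highest (22.2% and 5.56%, beside 10.3% and 12% of all tested genes). These were 2 and 2 with the trend removed, where the chaperone genes Hsph1 and Chordc1 were not lowest (adjusted p = 1 for each). Hspa1a stood at 2441 ± 287, 594 ± 166 and 1505 ± 281, and the highest, the small heat shock protein Hspb1, at 4730 ± 320, 17662 ± 948 and 8707 ± 1964 (adjusted p = 0.0788 with quantile normalization).

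Of 38 inflammatory cytokine and receptor genes, 9 were highest and 2 lowest, and 13 and 1 with the trend removed. Csf3, the granulocyte growth factor, read 2113, 2093 and 1935 on day 3, 368, 150 and 346 on day 1, and 312, 329 and 318 on day 5 (adjusted p = 0.000343). Il33, an alarmin stored in the nuclei of basal cells, read 3866, 4080 and 3606 on day 3 against 570 to 1148 and 367 to 514 (adjusted p = 0.000543). Cxcl2, which draws neutrophils, stood at 164 ± 66.2, 474 ± 84.7 and 113 ± 29.5. The lowest 2 were the adhesion receptor Icam1, at 1173 ± 139, 455 ± 125 and 1778 ± 239, and the lipopolysaccharide receptor Tlr4, at 373 ± 42.6, 184 ± 13.8 and 339 ± 82.5, the latter not with the trend removed (adjusted p = 0.248) or without day 3 replicate 1 (0.0512). Interferon response genes had a median contrast of 1.93, yet 7 of 59 were highest (11.9% beside 12% of all tested genes, and 16 with the trend removed). The list stayed up on day 5: its median was 3.28 for day 3 minus day 1 and 0.10 for day 3 minus day 5. Oasl1, an antiviral protein, came down, with 1613, 1438 and 1771 on day 3 against 57.0 to 66.4 on day 1 and 134 to 246 on day 5. The membrane tether Bst2 stood at 77.6 ± 16.9, 1324 ± 133 and 448 ± 194.

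The other genes with the widest margin above both days were mostly low or silent on those days, which the choice by margin itself favours. Ecscr, described from endothelial cells, read 189, 179 and 172 on day 3, 10.8, 4.98 and 9.70 on day 1, and at most 4.92 on day 5 (adjusted p = 0.000114). Muc13, a membrane mucin, stood at 1.46 ± 1.52, 104 ± 7.23 and 10 ± 5.58, and Cd300lb, an immune receptor gene, at 7.10 ± 0.68, 105 ± 17.6 and 2.79 ± 2.09. The calcium-binding proteins S100a4 and Ocm stood at 11.8 ± 7.97, 100 ± 29.9 and 1.25 ± 1.23, and at 21.1 ± 4.57, 220 ± 43.4 and 25.9 ± 5.35. Ecscr, Muc13, Cd300lb and S100a4 passed the count filter only through their day 3 libraries. Rn7sk, the 7SK RNA that holds the elongation factor P-TEFb inactive, read 1425, 983 and 871 on day 3, 29.8, 100 and 24.9 on day 1, and 40.6, 52.9 and 92.3 on day 5. The 330 genes of that family in the table summed to 2005 to 3165 on day 3, 126 to 326 on day 1 and 164 to 256 on day 5; their copies are near identical, and 3 of the 4 tested were highest. 7SK is not polyadenylated, and how RNA was selected before library making is not given in the sources used here.

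Genes with the deepest day 3 trough were nearly silent on that day, which the choice by margin itself favours. Usp33, a deubiquitinase, read 6.25, 0 and 12.8 on day 3, 701, 775 and 798 on day 1, and 467, 165 and 82.5 on day 5 (adjusted p = 0.00378). All 3 day 3 values lay below the other 6, and the day 5 libraries were far apart. The same spread on day 5 was seen in Sacm1l, a phosphoinositide phosphatase, with 490, 126 and 46.8 on day 5 against 2.68 to 8.88 on day 3 and 780 to 862 on day 1, and in Vcl, vinculin of cell adhesions, with 617, 219 and 96.0 against 14.7 to 45.4 and 2610 to 3314. Day 5 replicate 1, the library in which ribosomal genes were lowest, was the highest of its day in these 3 genes and in the others of the 12 named below. Fhl1, a LIM domain protein, had no such spread: it read 224, 194 and 219 on day 5, 73.2, 160 and 86.7 on day 1, and 6.25, 0 and 1.97 on day 3 (adjusted p = 0.00111). Ston1, Garre1, Dgkq, Cep126, Tasor2, Unkl, Atg9a and Zfp142 complete the 12 genes with the widest margin below both days, with day 3 means of 5.01 to 37.7. These also fell from day 5 replicate 1 to replicate 3, such as Ston1 with 338, 92.9 and 50.5 and Cep126 with 408, 236 and 190. Of these 12, Sacm1l (48.2%), Garre1 (32.7%), Dgkq (30.8%), Vcl (25.5%) and Usp33 (24.4%) share the largest parts of their exons with an opposite-strand gene, and all 12 stayed lowest with the length and GC trend removed.

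**Figure D4:**
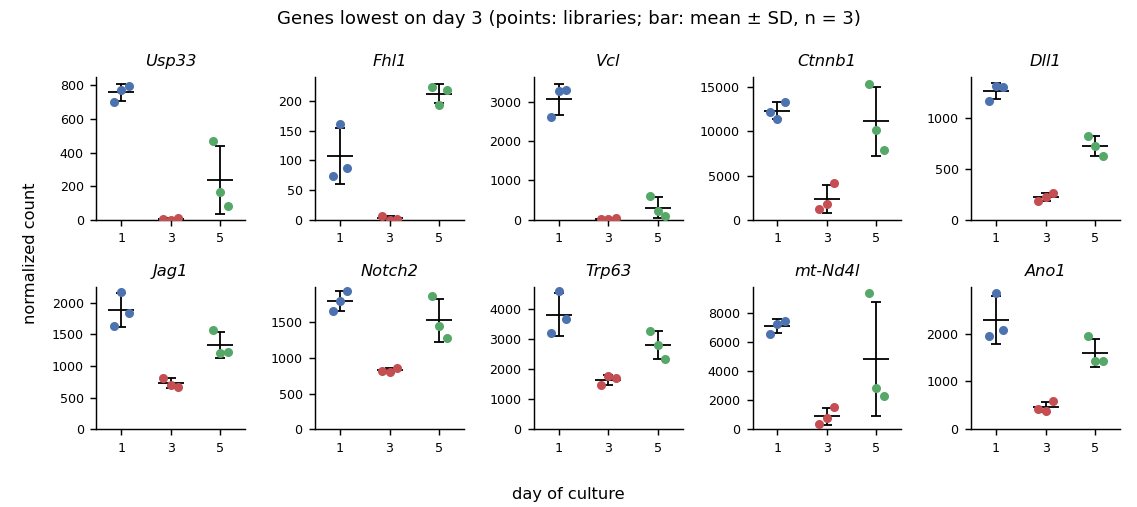
Normalized counts (y axis, linear, from 0) of 10 genes lowest on day 3, by day of culture (x axis); points are libraries and the bar is the mean ± SD of 3. Usp33, Vcl and mt-Nd4l have wide day 5 bars with day 5 replicate 1 on top, while the day 5 libraries of Fhl1, Dll1 and Jag1 lie closer together.

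Of 32 tested Notch genes 4 were lowest on day 3 and 0 highest, 12.5% beside 10.3% of all tested genes, a share near the background, and 4 and 1 with the trend removed. Dll1, the Delta ligand that marks cells sending the signal, read 189, 218 and 260 on day 3, 1168, 1311 and 1303 on day 1, and 819, 724 and 623 on day 5, so the mean was 5.68-fold higher on day 1 and 3.25-fold higher on day 5 (adjusted p = 0.000543). Jag1, a ligand of the Jagged kind, read 812, 704 and 661 against 1638 to 2174 and 1208 to 1572, but was not lowest with the trend removed (adjusted p = 0.168). Of the receptors, Notch2 was lowest, with 812, 805 and 859 against 1653 to 1940 and 1275 to 1867 (adjusted p = 0.00297). Notch1 read 333, 353 and 597 on day 3 and 1709, 857 and 517 on day 5, which overlap, and missed the threshold (adjusted p = 0.0857), although it was lowest without day 5 replicate 3 (0.00977) or day 3 replicate 3 (0.0466). Also not called was Notch3, with 824 ± 226, 591 ± 66.5 and 660 ± 154. The co-activator Maml1 stood at 693 ± 48.8, 235 ± 27.2 and 508 ± 127.

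Of 32 tested Wnt genes, 8 were lowest and 1 highest (25% and 3.1%, beside 10.3% and 12% of all tested genes). With the trend removed they were 5 and 0. Ctnnb1, beta-catenin, which joins cadherins to the cytoskeleton and carries the Wnt signal, read 1188, 1803 and 4144 on day 3, 12243, 11412 and 13375 on day 1, and 15420, 10187 and 7846 on day 5 (adjusted p = 0.00386). Days 1 and 5 were alike, and day 3 replicate 3 lay nearest to them. The receptor Fzd10 stood at 153 ± 37, 42 ± 4.38 and 151 ± 1.91, and the ligand Wnt3a at 33.7 ± 15.9, 8.01 ± 5.32 and 45.4 ± 7.81, the latter not called without day 1 replicate 2 or 3 or day 5 replicate 1 or 2 (adjusted p = 0.0566 to 0.126). Nkd1, a feedback inhibitor, had a level of 0 in each day 3 library and 2.29 ± 0.855 and 19.9 ± 2.74 on days 1 and 5, and was not called with a pseudocount of 8 (adjusted p = 0.286) or without day 1 replicate 3 (0.0674). The highest was the ligand Wnt10a, at 1040 ± 133, 1705 ± 31 and 1115 ± 243, not with the trend removed (adjusted p = 1), with quantile normalization (0.116) or without any single day 3 library (0.0582 to 0.0726). In the BMP and TGF-beta list 7 of 36 were lowest (19.4%) and 2 highest (5.56%), and with the trend removed 0 and 2. Tgfbr1 and Bmpr1a, receptors, stood at 1180 ± 76.9, 337 ± 38.3 and 649 ± 152 and at 2074 ± 144, 802 ± 78.5 and 1504 ± 341. The ligand Tgfb1, at 1209 ± 121, 2426 ± 320 and 936 ± 97.3, and the target Id1, at 200 ± 89, 658 ± 153 and 205 ± 61.5, were highest with and without the trend, Id1 not without day 3 replicate 1 or 2 (adjusted p = 0.053 and 0.0607).

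Calls in lists of basal, matrix and mechanical genes are given beside the 10.3% lowest and 12% highest of all tested genes. Of 24 basal cell genes, 4 were lowest (16.7%) and 2 highest (8.33%), and 2 and 2 with the trend removed. Trp63, the gene of p63, read 1469, 1762 and 1700 on day 3, 3197, 4580 and 3655 on day 1, and 3276, 2787 and 2332 on day 5 (adjusted p = 0.0108), and was not lowest with the trend removed (adjusted p = 0.696) or without day 3 replicate 1 (0.0547). Snai2, a repressor linked to basal identity, stood at 925 ± 86.3, 353 ± 39.8 and 651 ± 60.9, while the water channel Aqp3 was highest at 17830 ± 3654, 39453 ± 1971 and 22416 ± 1832 (adjusted p = 1 with quantile normalization). Krt5 and Krt14 were neither, and Krt5 fell stepwise from 108199 ± 5696 to 82486 ± 1709 and 38922 ± 5823. Krt14 differed between day 3 and day 5 by -0.25 (SE 0.18) on the log2 scale (adjusted p of that difference alone = 0.226). The adjusted p of Krt14 for being lowest was 0.847, though it was lowest with quantile normalization (0.00603). The contrast of Krt5 was 0.35 and changed sign with quantile normalization (-0.58). Of 39 matrix and wound genes 6 were lowest (15.4%) and 1 highest (2.56%), and 4 and 1 with the trend removed. The collagen Col12a1 read 1.25, 9.37 and 0.987 on day 3 against 133 to 246 on day 1 and 33.2 to 64.5 on day 5, and vimentin (Vim), low throughout, read 1.34 to 3.95 against 22.4 to 27.1 and 47.6 to 55.4. Of 26 targets of YAP and TAZ, the factors that respond to cell stretch, 6 were lowest (23.1%) and 1 highest (3.85%). These were 2 and 1 once the trend was removed. Amotl2 stood at 2591 ± 119, 539 ± 94.9 and 1196 ± 149. Of 31 actin cytoskeleton genes 4 were highest (12.9% beside 12% of all tested genes) and 1, Vcl, lowest, and 2 and 1 with the trend removed. The highest were the myosin light chain genes Myl12a, at 3856 ± 312, 6924 ± 417 and 2984 ± 590, and Myl6, the tropomyosin Tpm2 and profilin (Pfn1). Tpm2 and Pfn1 were not highest with the trend removed (adjusted p = 1 for each), and Myl6, Tpm2 and Pfn1 not with quantile normalization (adjusted p = 1, 0.0794 and 0.219). Myl6 and Tpm2 were not highest without any single library of day 1 or without day 3 replicate 1 or 2 (adjusted p = 0.0637 to 0.2), and Myl6 not without day 5 replicate 1 or 2 (0.0905 and 0.0782) or with upper-quartile scaling (0.115). Of 27 polarity genes 6 were lowest (22.2%) and 1 highest (3.70%), but 0 and 3 with the trend removed. The 1 highest was Crb3, of the apical Crumbs complex, at 806 ± 89.5, 2005 ± 171 and 769 ± 136.

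Channels and clock genes held members of both kinds. Of 31 ion and water transport genes, 6 were highest and 4 lowest (19.4% and 12.9%, beside 12% and 10.3% of all tested genes). The chloride channel Ano1 read 421, 382 and 590 on day 3, 1940, 2854 and 2065 on day 1, and 1943, 1424 and 1433 on day 5 (adjusted p = 0.000979), and Cftr, the channel lost in cystic fibrosis, read 8.74 to 18.7 against 37.4 to 50.3 and 43.1 to 76.3, the latter not lowest with the trend removed (adjusted p = 0.546) or without day 1 replicate 3 (0.0522). The water channel Aqp5 was highest, at 26258 ± 5280, 60223 ± 2829 and 14515 ± 2092, again not with the trend removed (adjusted p = 1) or with quantile normalization (0.499). Of 19 clock genes, 1 was highest and 3 lowest (5.26% and 15.8%, beside 12% and 10.3% of all tested genes), and 2 and 2 with the trend removed. The activator Arntl was lowest with 307, 270 and 282 on day 3 against 659 to 682 and 706 to 918. Dbp, an output gene that peaks in antiphase to Arntl, was highest with 581, 620 and 785 against 35.2 to 40.7 and 309 to 438. That call was lost without day 3 replicate 3 (adjusted p = 0.0589). Nfil3, a repressor, was lowest at 337 ± 8.12, 181 ± 14.1 and 413 ± 5.74, and Clock, the partner of Arntl, at 2742 ± 318, 754 ± 25.2 and 1186 ± 292, the latter not with the trend removed (adjusted p = 1) or without day 1 replicate 2, day 5 replicate 2 or any single day 3 library (0.051 to 0.102). The hour of collection is not given in the sources used here, and its part in these values was not tested.

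A positive contrast with the average was not always a peak. Mitosis genes had a median contrast of 0.36, with 26 of 44 higher than the average, but 3 were highest: the list fell through all days, by a median of 0.96 on the log2 scale from day 1 to day 3. Mki67 stood at 10441 ± 1149, 4207 ± 128 and 1068 ± 108. DNA replication genes had 37 of 50 above the average and 7 highest (14% beside 12% of all tested genes), among them the clamp loader subunit Rfc2 at 1453 ± 150, 3137 ± 453 and 1212 ± 178. Motile cilium genes had the reverse form, with a median contrast of -2.71, 47 of 58 lower than the average and 0 lowest, since they rose on day 5. Among cell cycle inhibitors and p53 targets 7 of 38 were highest (18.4% beside 12%) and 3 lowest (7.89% beside 10.3% of all tested genes). The highest included the apoptosis effector Bax at 1420 ± 50.4, 4785 ± 815 and 1646 ± 400.

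Calls followed transcript length, a value that moved with day 3 in the whole table. The median length was 1672 bases for the highest, 4240 for the lowest and 2848 for all tested genes, and the median GC content 52.7%, 46.8% and 49.6%. In 10 bins of equal gene number ordered by length, the share of highest genes was 20.6%, 24.2% and 21.2% in the 3 shortest and 1.99% in the longest, and the share of lowest genes went from 5.81% in the shortest to 23.1% in the longest. With the trend removed, highest genes made up 12% to 18.4% of each bin and lowest genes 3.93% to 7.27%. Of the highest genes 1534 (74.0%) and of the lowest 778 (43.4%) kept their call. The median length was 1059 bases in the ribosomal list, 1186 in the respiratory list and 2782 among translation factors, and whether length or function orders these values was not tested. Genes that share exonic bases with an opposite-strand gene made up 35.8% of the lowest, 25.6% of the highest and 28.3% of all tested genes with an annotation.

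**Figure D5:**
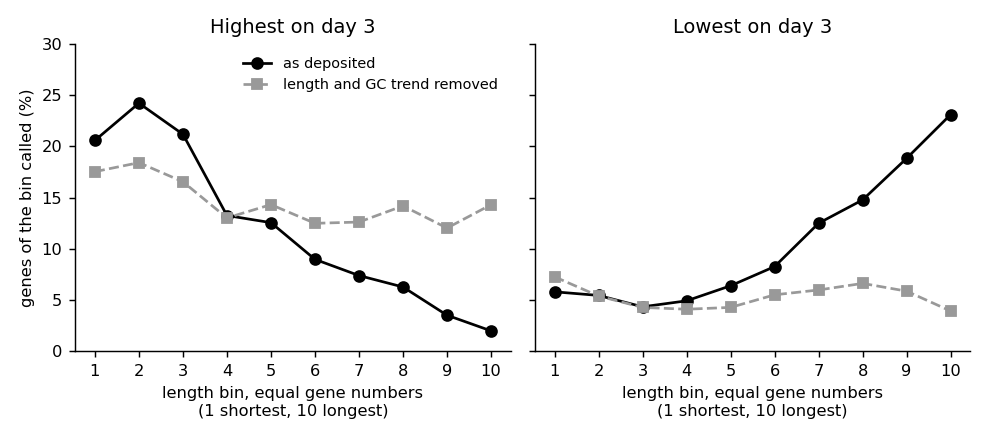
Share of genes called (y axis, percent) in each of 10 bins of equal gene number by transcript length (x axis, 1 the shortest), for genes highest (left) and lowest (right) on day 3. The black line is the deposited data, going from 20.6% to 1.99% on the left and from 5.81% to 23.1% on the right, and the grey line has the length and GC trend removed.

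Markers of other tracheal cell types were mostly near 0. Of 24 leukocyte markers 8 were tested and 3 were highest. Cd68, a lysosomal protein typical of macrophages but not limited to them, read 1594, 1542 and 1699 on day 3, 256, 245 and 278 on day 1, and 146, 179 and 164 on day 5 (adjusted p = 5.57e-06), and the B cell receptor component Cd79b stood at 9.77 ± 3.51, 108 ± 2.95 and 15.6 ± 1.50. The defining markers Ptprc and Tyrobp were at 0 in each day 3 library and Laptm5 at no more than 1.97. The summed leukocyte level ran from 323 to 365 on day 1, 2365 to 2454 on day 3 and 64157 to 82361 on day 5, where Lyz2 alone gave 63260 to 81448. Of 20 fibroblast markers 4 were tested and 2 highest, Twist2 and the actin-severing protein Gsn, neither with the trend removed (adjusted p = 0.167 and 1). The contrast of Gsn was 0.39, and -0.008 with quantile normalization. Leaving out any single library of day 1 or day 3 ended both calls, as did leaving out day 5 replicate 3 for Gsn and day 5 replicate 2 for Twist2 (adjusted p = 0.0593 to 0.17 and 0.0506 to 0.159). The summed fibroblast level was 9328 to 9673, 12506 to 12853 and 8511 to 10819, while Col1a1, Col3a1 and Pdgfra were under 4 and Dcn at 0 on day 3. Of 20 endothelial, muscle and cartilage markers 6 were tested and 0 called, with sums of 381 to 644, 178 to 323 and 268 to 319. In bulk RNA, fewer cells of a type and less RNA per cell cannot be told apart, here and in each result above.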

How the data were processed

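Total RNA libraries were made with a VAHTS universal kit, per the labels' protocols. The submitters' processing notes name HISAT2 2.1.0, DESeq2 1.36.0 and the build GRCm39; which program counted reads, with which annotation and strand setting, is not given in the sources used. The authors deposited log2 of the size-factor normalized count, without a pseudocount; 297330 cells with an error text in place of the log2 of 0 were read as 0, and 359 repeated lines of 57107 were dropped. Each of the lower values was a whole multiple of 1 read (100% within 0.01 of a read). Large values were rounded to whole reads without that check, and the reads summed to the depths of 16.4 to 35.1 M. limma 3.58.1 in R 4.3.3 was fitted to log2(normalized count + 1) with 1 mean per day over all 9 libraries (eBayes with trend, 6 residual degrees of freedom) and tested on simulated data. A highest or lowest call took the larger of the 2 two-sided p of day 3 against each other day, adjusted by Benjamini-Hochberg at 0.05 over 17338 genes. Every adjusted p beside a gene is this p, except the one given for the difference of Krt14 between day 3 and day 5. The log2(x + 1) scale understates changes of low genes. Length, GC and overlaps came from GENCODE M21 (GRCm38) by identifier, and promoters from RefSeq (GRCm38.p6). Genes and 42 lists (1466 symbols, 1444 matched directly and 19 through an older symbol) were chosen with earlier results of these data known. Named genes are 12 markers, the 12 widest margins in each direction (at least 100 normalized counts, predicted models left out), up to 4 called members per list and direction, members called against their list, and Gstp2, Gstp3, Krt7, Krt18, Krt19, Rps15, Rplp2, Rpsa and Cldn3, chosen after their values were seen. A gene of the retinoid list that the rule also names is not reported here, and stays in the counts of its list. Alternatives covered pseudocount, filter, scaling, length and GC trend, replicate block, strand overlap and leaving out each library.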

Additional observations from a re-analysis of the deposited data

How the results depend on the processing

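Counts of highest and lowest genes were the least stable values. Against 1791, the number of lowest genes was 908 with the length and GC trend removed, 1151 with the replicate number as a block, 593 with both, 1074 with genes that overlap an opposite-strand gene left out (12237 genes tested), and 897 when at least 2-fold from both days was also required, where the highest numbered 1007. Leaving out each library in turn gave 1300 to 2110 highest genes, 1039 to 2089 lowest, 5068 to 5931 above the average and 5707 to 6457 below it. Without day 3 replicate 1 the counts were 1300 highest and 1060 lowest, and without day 3 replicate 2 they were 1324 and 1039, with 2 libraries on that day; beyond the smaller number the cause was not tested. Other settings (pseudocounts of 0.5 and 8, no filter or a filter of 50, quantile and upper-quartile scaling, the deposited log2 values, no variance trend) kept all 4 counts within 1.5 times. The contrast was reversed for Krt5 (-0.58) and Gsn (-0.0080) with quantile normalization; the cause was not tested. Of 190 named genes with a call, 137 of the 187 with a length kept it with the trend removed, and 166 of 190 with quantile normalization. Replicate numbers did not pair the libraries: correlations of same-numbered deviations ran from -0.31 to 0.14, and the block gave 1635 highest genes. Depth limits genes near 0 on day 3, where 1 read is worth 0.987 to 1.34 normalized counts.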
